A study of Homo sapiens with 6 samples.

Results

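The hepatocyte growth factor (HGF) pathway and its close relative, the macrophage stimulating protein (MSP) pathway, were examined in drug-resistant and drug-sensitive ovarian cancer cells. The 10 genes examined were chosen by name for their roles in these pathways, out of 58051 genes in the table of normalized counts. Earlier results of these data were known when the genes were chosen. They comprise the ligand genes HGF and MST1, the receptor genes MET and MST1R, the protease genes HGFAC, ST14 and HPN, the inhibitor genes SPINT1 and SPINT2, and the adaptor gene GAB1. A2780-ADR is an adriamycin-resistant line derived from A2780, a human ovarian cancer line sensitive to doxorubicin, and adriamycin is another name of doxorubicin. RNA of 3 A2780-ADR and 3 A2780 samples was sequenced. All were untreated and grown in the same serum-containing RPMI medium. A2780-ADR is a single derivative line, so drug resistance and other changes acquired by that line cannot be told apart. Each sample held 27775745 to 30513366 reads in genes. Nothing says whether the 3 samples of a line came from separate cultures, so each p-value reflects no more than the scatter of these libraries, part or all of which may be technical.

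HGF and MSP are secreted as inactive single chains and become active when a serine protease cuts them. Active HGF binds the receptor tyrosine kinase MET, and active MSP binds RON, the kinase encoded by MST1R. The signal then runs through docking proteins such as GAB1 to the RAS, ERK and PI3K pathways, which drive growth, survival and cell scattering. HGFAC encodes the HGF activator, while ST14 and HPN encode the membrane proteases matriptase and hepsin. The Kunitz-type inhibitors HAI-1 and HAI-2, products of SPINT1 and SPINT2, restrain these proteases. HGF is classically made by stromal cells and MET by epithelial cells. The gene MST1 described here encodes MSP and is unrelated to the Hippo pathway kinase of the same name.

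The receptor genes changed in opposite directions between the lines. MET was almost lost in A2780-ADR cells, whereas MST1R, which was almost silent in A2780 cells, was expressed at a low level in A2780-ADR cells. HGF RNA was abundant in both lines and fell in A2780-ADR cells, and HGFAC and SPINT1 rose. Differences were tested with limma on log2(normalized count + 1) for every gene averaging 10 normalized counts or more, and a gene was called where the Benjamini-Hochberg adjusted p lay below 0.05 and the fold change above 2. Of the 10 genes, 8 passed the filter, and 3 of these were called higher and 2 lower in A2780-ADR cells. Of all 17005 genes tested, 27.6% were called, 13.2% as higher and 14.4% as lower. MET, MST1R and HGFAC passed the filter only through the line in which each was high, so their calls do not measure how common such differences are. The median log2 fold change of the 8 tested members was 0.10, against -0.01 for all genes tested, and the median absolute change was 1.14 against 0.49. As the members were chosen with earlier results known, these contrasts with all genes do not measure how unusual the members are. With no fold threshold, 7 of the 8 had an adjusted p below 0.05 in limma, as did 71.8% of all genes tested. Of the 7, MST1 passed only just (0.0491). Samples of the lines did not overlap for 7 of the 8 tested members, beside 74.6% of all genes tested, nor for the 2 members below the filter. The added pseudocount shrinks the fold of weakly expressed genes. In such bulk RNA, fewer expressing cells and less RNA per cell cannot be told apart.

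**Figure D1:**
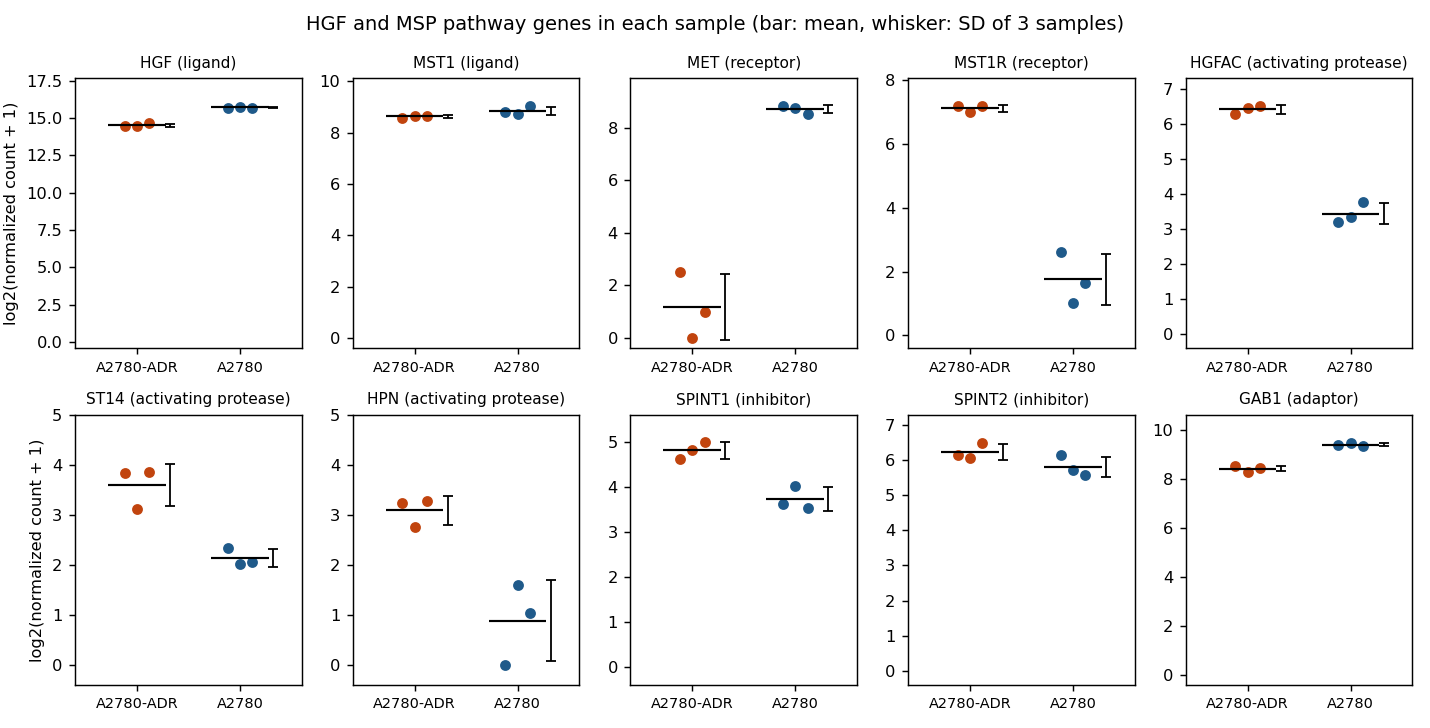
Normalized counts of the 10 genes in each of 3 A2780-ADR (left, orange) and 3 A2780 (right, blue) samples, as log2(normalized count + 1), with the mean as a bar and the SD as a whisker. MET is high in A2780 alone, MST1R and HGFAC are high in A2780-ADR, and only for SPINT2 do the samples of the lines overlap.

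The sequences before the start sites of the 4 genes that changed most, or were most abundant, are shown so that the promoters of the receptor genes can be set beside those of HGF and HGFAC. Each window runs from 250 bases before to 50 bases after the RefSeq gene start on GRCh38.p14, is written 5′ to 3′ on the strand of the gene, and has capitals at the GC box GGGCGG on either strand.
MET promoter, chr7:116671946-116672245, plus strand: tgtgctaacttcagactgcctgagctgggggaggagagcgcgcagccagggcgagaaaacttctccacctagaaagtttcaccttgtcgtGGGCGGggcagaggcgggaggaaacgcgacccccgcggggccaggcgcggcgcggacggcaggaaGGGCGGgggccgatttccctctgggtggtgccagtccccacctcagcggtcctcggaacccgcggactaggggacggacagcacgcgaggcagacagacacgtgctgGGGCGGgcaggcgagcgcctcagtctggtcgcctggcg
MST1R promoter, chr3:49903824-49904123, minus strand: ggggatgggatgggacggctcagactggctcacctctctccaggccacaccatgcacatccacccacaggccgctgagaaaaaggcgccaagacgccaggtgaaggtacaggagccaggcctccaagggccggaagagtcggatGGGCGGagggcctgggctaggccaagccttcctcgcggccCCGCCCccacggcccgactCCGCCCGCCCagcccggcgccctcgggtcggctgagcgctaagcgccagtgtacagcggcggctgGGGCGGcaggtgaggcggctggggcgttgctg
HGF promoter, chr7:81769998-81770297, minus strand: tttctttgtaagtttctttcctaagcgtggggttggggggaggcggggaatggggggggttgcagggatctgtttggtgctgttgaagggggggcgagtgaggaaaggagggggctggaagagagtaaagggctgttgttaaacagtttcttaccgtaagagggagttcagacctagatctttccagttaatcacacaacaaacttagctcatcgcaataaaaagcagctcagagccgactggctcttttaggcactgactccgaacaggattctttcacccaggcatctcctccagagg
HGFAC promoter, chr4:3441718-3442017, plus strand: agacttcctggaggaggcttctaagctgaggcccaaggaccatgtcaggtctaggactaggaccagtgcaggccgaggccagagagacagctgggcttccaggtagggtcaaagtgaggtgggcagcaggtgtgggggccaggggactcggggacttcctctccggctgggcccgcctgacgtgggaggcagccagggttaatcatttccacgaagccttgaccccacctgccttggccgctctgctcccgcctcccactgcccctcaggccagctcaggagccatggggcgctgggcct

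The receptor promoters were richer in CpG and in GC boxes than those of HGF and HGFAC. The MET window held 30 CpG dinucleotides and 3 GC boxes, and that of MST1R held 25 CpG and 5 GC boxes, among them an overlapping pair. The HGF window held 7 CpG and that of HGFAC held 9, both without a GC box, against a median of 14 CpG over 34935 promoter windows, of which 44.9% held a GC box. Both kinds of promoter belonged to a gene that rose and to a gene that fell. The E-box CAGGTG, searched on both strands and present in 20.6% of all windows, was found at 2 places each for MST1R and HGFAC and at none for MET and HGF. Among the other members, the HPN window held 3 E-boxes, the MST1 window held 1, and of a pair of SPINT1 windows 1 held a single E-box. Richness in CpG and GC boxes was not particular to the receptor genes. The MST1 window held 32 CpG and 2 GC boxes. That of HPN also held 2 GC boxes, but its 12 CpG lay below the median of 14. The SPINT1 windows held 38 CpG with 3 GC boxes and 25 CpG with 0. A match to these letters is a description of the sequence, not a measured binding site. Windows were matched for 7 of the 10 genes, and ST14, SPINT2 and GAB1 were not matched.

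MET (chr7:116672390-116798386, plus strand, GRCh38) encodes the HGF receptor. It had 4.73, 0 and 0.962 normalized counts in the A2780-ADR samples, against 450, 430 and 370 in the A2780 samples. All A2780-ADR samples were near 0 and far below every A2780 sample. The means were 1.90 ± 2.50 in A2780-ADR and 417 ± 41.2 in A2780 (SD, n = 3 each), with a log2 fold change of -7.54 (standard error 0.48, adjusted p = 3.49e-08 from limma). Only 6 MET reads were present in all A2780-ADR libraries, against 1215 in those of A2780, a 218-fold lower level with a 95% exact counting interval of 99.8 to 595. Such intervals cover counting error alone. Of the 6 reads, 5 came from A2780-ADR replicate 1, and without that library the level was 867-fold lower, a value that rests on 1 read. Of the 17005 genes tested, 125 had a larger decrease than MET.

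MST1R (chr3:49887002-49903873, minus strand) encodes RON, the MSP receptor and the closest relative of MET. Its normalized counts were 145, 126 and 145 in A2780-ADR, against 5.09, 1.02 and 2.11 in A2780. The lowest A2780-ADR sample lay far above the highest A2780 sample. The means of 139 ± 10.9 in A2780-ADR and 2.74 ± 2.11 in A2780 (SD, n = 3 each) gave a log2 fold change of 5.37 (standard error 0.35, adjusted p = 4.82e-08 from limma). With 435 reads in A2780-ADR and 8 in A2780, the level was 50.5-fold higher, with a counting interval of 25.4 to 118. Without A2780 replicate 1, which held 5 of the 8 reads, it was 89.2-fold higher. A larger increase was seen for 176 of the genes tested. The antisense transcripts AC105935.1 and AC105935.2 share exon bases with MST1R and averaged 9.90 and 0 normalized counts in A2780-ADR, against 2.40 and 0 in A2780.

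HGF (chr7:81699008-81770438, minus strand) was per kb of exons the most abundant of the 10 genes in both lines. Its normalized counts were 22465, 22598 and 25796 in A2780-ADR, against 53344, 55836 and 52239 in A2780. Every A2780-ADR sample lay far below every A2780 sample, and the replicates of a line lay close together. HGF fell to 23620 ± 1886 in A2780-ADR, against 53807 ± 1842 in A2780 (SD, n = 3 each), with a log2 fold change of -1.19 (standard error 0.06, adjusted p = 2.51e-09 from limma). The transcript took 0.0821% of all reads in genes in A2780-ADR and 0.182% in A2780. Ranked by normalized counts per kb of merged exons among 16936 annotated genes tested, HGF was number 412 in A2780-ADR and number 149 in A2780. The ligand gene was thus still among the highly expressed genes of A2780-ADR cells.

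MST1 (chr3:49683947-49689501, minus strand), the gene for MSP, was expressed at a similar level in both lines. It had 380, 406 and 405 normalized counts in A2780-ADR, against 449, 420 and 521 in A2780. The samples did not overlap, but the gap was narrow. The log2 fold change was -0.22 (95% interval -0.42 to -0.02, adjusted p = 0.0491 from limma), short of the 2-fold threshold. MST1 has near copies, and its reads may be split among them. MST1L averaged 62.9 normalized counts in A2780-ADR and 34.1 in A2780, and MST1P2 averaged 191 in A2780-ADR and 114 in A2780. MST1 also shares 17 exon bases with APEH and 3 with RNF123 on the opposite strand. On its own strand it shares 353 exon bases with AC099668.1, which averaged 0 normalized counts in both lines.

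The balance of ligand and receptor RNA, as the ratio of levels per kb of exons, thus differed by pathway. HGF exceeded MET by a factor of 8927 in A2780-ADR, a value that rests on 6 MET reads, and of 92.6 in A2780. Without A2780-ADR replicate 1 the factor in that line was 36055, so its size is not well determined. MST1 exceeded MST1R by a factor of 2.96 in A2780-ADR and of 175 in A2780, where the divisor rests on 8 reads and the factor was 311 without A2780 replicate 1. MST1R was at 26.4 normalized counts per kb in A2780-ADR against 0.521 in A2780, and MET at 0.270 in A2780-ADR against 59.2 in A2780. By this level MST1R was number 12303 in A2780-ADR and MET number 10196 in A2780, among 16936 annotated genes tested. These ratios compare RNA levels and had no test.

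**Figure D2:**
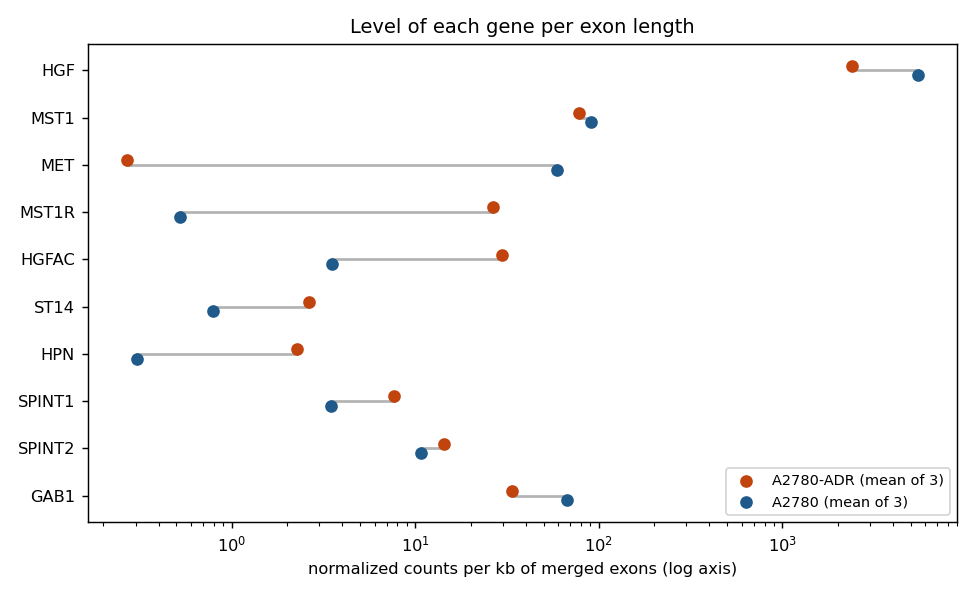
Mean normalized counts per kb of merged exons (log axis) of each gene in A2780-ADR (orange) and A2780 (blue), n = 3 each, with a grey line joining the lines. HGF stands highest in both lines, at 2406 in A2780-ADR and 5481 in A2780, and the long grey lines of MET and MST1R run in opposite directions.

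Of the activating proteases among the members, HGFAC was tested and rose in A2780-ADR cells, while ST14 and HPN were too low for the test. HGFAC (chr4:3441887-3449495, plus strand) had 76.6, 86.7 and 90.5 normalized counts in A2780-ADR, against 8.14, 9.17 and 12.7 in A2780. The groups were well apart. HGFAC rose to 84.6 ± 7.16 in A2780-ADR, against 9.99 ± 2.37 in A2780 (SD, n = 3 each), with a log2 fold change of 2.98 (standard error 0.22, adjusted p = 1.63e-07 from limma). A larger increase was seen for 591 of the genes tested. HGFAC is known mainly as a plasma protease made in the liver, and 5 hepatocyte genes are given beside it. Their summed level was 47.3 to 50.1 normalized counts in A2780-ADR and 1429 to 1461 in A2780. APOA1, an apolipoprotein gene, rose to 17.9 in A2780-ADR, against 2.76 in A2780, and FGB, a fibrinogen gene, fell to 28.4 in A2780-ADR, against 1439 in A2780. The other 3, ALB and TTR among them, averaged under 10 over all samples, with ALB at 1.90 in A2780-ADR and 1.73 in A2780 and TTR at 0 in both. The part of these genes in the HGFAC result was not tested.

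ST14 (chr11:130159562-130210376, plus strand), the matriptase gene, and HPN (chr19:35040506-35066571, plus strand), the hepsin gene, had too few reads for the filter and were not tested with it. ST14 had 13.2, 7.71 and 13.5 normalized counts in A2780-ADR, against 4.07, 3.06 and 3.17 in A2780. HPN had 8.51, 5.78 and 8.66 in A2780-ADR, against 0, 2.04 and 1.06 in A2780. For both genes every A2780-ADR sample exceeded every A2780 sample, and the two-sided exact permutation p was 0.1 for each (n = 3 per line), the smallest that 3 samples against 3 can give. The ratio of reads, scaled for depth, was 3.34 for ST14 (36 reads in A2780-ADR and 10 in A2780, counting interval 1.63 to 7.56) and 7.43 for HPN (24 reads in A2780-ADR and 3 in A2780, counting interval 2.26 to 38.6). The HPN ratio was 4.92 without A2780 replicate 1 and 14.8 without A2780 replicate 2. When limma was run with no filter on low values, the log2 fold change was 1.46 for ST14 (adjusted p = 0.0112) and 2.21 for HPN (adjusted p = 0.00442). The antisense gene HPN-AS1, which shares 349 exon bases with HPN, averaged 0.321 normalized counts in A2780-ADR and 2.74 in A2780.

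Of the inhibitor genes, SPINT1 rose and SPINT2 was not called. SPINT1 (chr15:40844018-40858207, plus strand), which encodes HAI-1, had 23.6, 27.0 and 30.8 normalized counts in A2780-ADR, against 11.2, 15.3 and 10.6 in A2780. The samples did not overlap. SPINT1 rose by a log2 fold change of 1.09 (standard error 0.25, adjusted p = 0.00222 from limma), close to the fold threshold. The call was lost without A2780-ADR replicate 3 (0.99, adjusted p = 0.0121 from limma) and without A2780 replicate 3 (0.99, adjusted p = 0.00828), and with a pseudocount of 5 (0.89). SPINT2 (chr19:38244035-38292614, plus strand), which encodes HAI-2, had 70.0, 65.5 and 89.5 normalized counts in A2780-ADR, against 69.2, 51.9 and 46.4 in A2780. One A2780 sample lay within the range of A2780-ADR, and the log2 fold change of 0.43 did not pass (95% interval -0.001 to 0.85, adjusted p = 0.0686 from limma). Per kb of exons, SPINT2 stood at 14.4 normalized counts in A2780-ADR and 10.7 in A2780, above SPINT1 at 7.66 in A2780-ADR and 3.48 in A2780. SPINT1 shares 100 exon bases with the antisense gene SPINT1-AS1, which averaged 0.636 normalized counts in A2780-ADR and 0 in A2780. SPINT2 shares 242 exon bases with AC011479.1 on its own strand, which averaged 0 in both lines.

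GAB1 (chr4:143336762-143474568, plus strand), the docking protein that binds active MET directly, was lower in A2780-ADR cells by almost 2-fold. It had 365, 314 and 346 normalized counts in A2780-ADR, against 671, 709 and 648 in A2780. The groups were clearly apart. The log2 fold change was -0.98 (standard error 0.08, adjusted p = 3.32e-07 from limma), which missed the fold threshold. It passed without A2780-ADR replicate 1 (-1.03, adjusted p = 2.14e-06 from limma) and without A2780 replicate 3 (-1.01, adjusted p = 7.99e-06).

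Chromosomal neighbours of the called members are given beside the 27.6% of all tested genes that were called, 13.2% as higher and 14.4% as lower. Of 7 tested protein-coding genes lying wholly or partly within 1 Mb of the ends of MET, 5 were lower and 0 higher in A2780-ADR, with a median log2 fold change of -5.07. CAV1, the gene of the membrane coat protein caveolin and the nearest neighbour before MET at a distance of 111 kb, averaged 0.321 normalized counts in A2780-ADR and 109 in A2780 (1 read left, a 341-fold lower level with a counting interval of 60.8 to 13518). That read was in A2780-ADR replicate 3, and without this library the level was at least 76.0-fold lower, with 0 replaced by 3 reads in the line. Like MET, CAV1 passed the filter only through A2780, where it was high. The count of lower genes around MET therefore does not measure how unusual this stretch is. CAPZA2, the nearest after MET at 12.7 kb, had a log2 fold change of 0.28 and was not called. Further genes of this stretch, named after their values were seen, were CAV2 (-6.22), TES (-8.94), TFEC (-3.56) and CTTNBP2 (-5.07), all called lower, and ST7 (0.55), which was not called. HGF lies on the same chromosome among genes that went the other way. All 3 tested genes within 1 Mb of it were higher, among them its nearest neighbours SEMA3C, an axon guidance ligand gene (4227 ± 222 in A2780-ADR, 214 ± 8.58 in A2780, SD, n = 3 each), and CACNA2D1, a calcium channel subunit gene (3969 ± 309 in A2780-ADR, 1485 ± 83.9 in A2780).

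Most neighbours of MST1R and HGFAC were not called, as is true of most genes tested. Of 51 tested protein-coding genes within 1 Mb of MST1R, 1 was higher and 6 lower, with a median log2 fold change of -0.16. The nearest were MON1A at 3.29 kb (-0.33, not called) and CAMKV at 16.8 kb (-1.10, adjusted p = 0.0231 from limma). The CAMKV call was lost without A2780-ADR replicate 3 (-0.61, adjusted p = 0.0714 from limma), A2780 replicate 1 (-1.01, 0.0771) and A2780 replicate 3 (-1.06, 0.0690), and with no filter on low values (0.0567). Of 18 genes within 1 Mb of HGFAC, 0 were higher and 2 lower, and its nearest neighbours RGS12 (-0.27) and LRPAP1 (-0.31) were not called. Around SPINT1, 5 of 40 genes were higher and 3 lower, and the neighbours ZFYVE19 (0.39) and RHOV (-0.11) were not called.

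**Figure D3:**
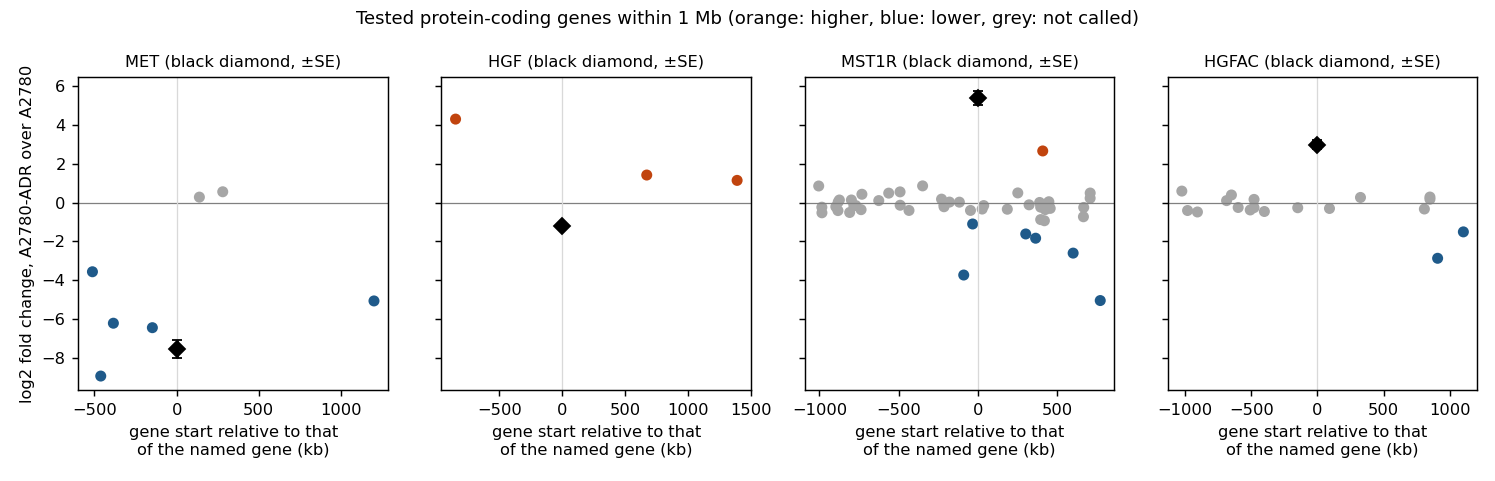
Log2 fold changes of tested protein-coding genes within 1 Mb of MET, HGF, MST1R and HGFAC against the distance of their start from that of the named gene (kb, by increasing coordinate), with genes called higher in orange, lower in blue and uncalled in grey, and the named gene as a black diamond with its standard error. MET falls with the 4 genes before it, HGF falls while 3 of 3 neighbours are higher, and MST1R and HGFAC rise among genes that mostly lie near 0.

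Other genes of the pathway were taken from 7 lists written from general knowledge. Their counts stand beside the 27.6% of all tested genes that were called, 13.2% as higher and 14.4% as lower. Among the called genes of these lists, SERPINB2, NRP1, MUC20, CBLC, PTGS2 and MMP1 passed the filter only through the line in which each was high. The shares called in the lists that hold them therefore do not measure how common such differences are. Of 5 tested proteases outside the member list that can activate HGF or act with matriptase, 1 was higher and 2 were lower (60%). PLAT, the tissue plasminogen activator gene, rose to 341 ± 22.4 normalized counts in A2780-ADR, against 13.4 ± 3.07 in A2780 (SD, n = 3 each, log2 fold change 4.59). PLAU, the urokinase gene, fell to 102 ± 7.70 in A2780-ADR, against 385 ± 15.8 in A2780 (-1.92). PRSS8, the gene of prostasin, which acts in a cascade with matriptase, was lower (-1.03), a call lost without A2780 replicate 2 (-0.91). Of 4 tested serpin genes, 3 were higher and 0 lower (75%), with a median log2 fold change of 1.77. Both of these shares rest on few genes. Among the serpin genes SERPINB2 (1.77), which encodes an inhibitor of urokinase, and SERPINF2 (1.76), which encodes an inhibitor of plasmin, rose.

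Of 14 tested surface partners of the receptors, 2 were higher and 5 lower in A2780-ADR (50%), with a median log2 fold change of -0.60. NRP1, a co-receptor of several growth factors, had 0 reads in A2780-ADR against 172 in A2780, at least 61.7-fold lower when 0 is replaced by 3 reads in the line. DCN, the gene of decorin, a matrix proteoglycan that binds MET, fell to 21.0 ± 6.59 in A2780-ADR, against 113 ± 19.7 in A2780 (SD, n = 3 each, -2.41), and the mucin gene MUC20 (-2.16) fell. EGFR, a receptor kinase that cooperates with MET, rose to 687 ± 33.2 in A2780-ADR, against 257 ± 9.93 in A2780 (1.41), and PLXNB1, a semaphorin receptor gene, was higher (1.02), a call lost without A2780 replicate 3 (0.99).

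Of 26 tested intracellular relays, 2 were higher and 3 lower, 19.2% against 27.6% of all genes, with a median log2 fold change of -0.16. The GTPase gene RAP1A (1.59) and the adaptor gene SHC1 (1.14) rose, and GAB2, the closest relative of GAB1 in the list, fell to 239 ± 9.29 in A2780-ADR, against 711 ± 76.3 in A2780 (SD, n = 3 each, -1.56). The kinase genes AKT1 (-1.26) and PIK3CA (-1.06) fell. Of 13 tested genes that end receptor signalling, 1 was higher and 2 were lower (23.1%). CBLB, a ubiquitin ligase gene of the CBL family, fell to 136 ± 20.0 in A2780-ADR, against 1949 ± 51.6 in A2780 (-3.84), and its relative CBLC (3.29) rose.

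Of 18 tested genes known to be induced by HGF or by the ERK pathway, 5 were higher and 2 lower (38.9%), with a median log2 fold change of -0.16. SNAI2, a repressor of epithelial genes, rose to 2567 ± 118 in A2780-ADR, against 184 ± 5.21 in A2780 (SD, n = 3 each, 3.79), and the AP-1 gene FOSL1 (3.52) and the prostaglandin synthase gene PTGS2 (2.18) rose as well. MMP1, the interstitial collagenase gene, fell to 3.52 ± 4.45 in A2780-ADR, against 550 ± 47.8 in A2780 (-7.37), and the angiogenic factor gene VEGFA (-1.27) fell. Genes of the epithelial programme, with which matriptase, RON and the HAI inhibitors are usually expressed, went both ways. Of 9 tested, 2 were higher and 2 lower (44.4%). The keratin genes KRT8 (9071 ± 572 in A2780-ADR, 79.1 ± 8.62 in A2780) and KRT18 (4072 ± 242 in A2780-ADR, 130 ± 18.3 in A2780) rose, and the transcription factor gene ELF3 (-2.16) and the claudin gene CLDN7 (-2.01) fell. Genes of the list that were not called included EPCAM (75.3 in A2780-ADR, 54.6 in A2780), MUC1 (343 in A2780-ADR, 449 in A2780) and KRT19 (32.6 in A2780-ADR, 27.7 in A2780). The other 9 of the 18 listed genes were below the filter, among them CDH1, the E-cadherin gene (4.14 in A2780-ADR, 4.79 in A2780). These uncalled genes were named after their values were seen.

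**Figure D4:**
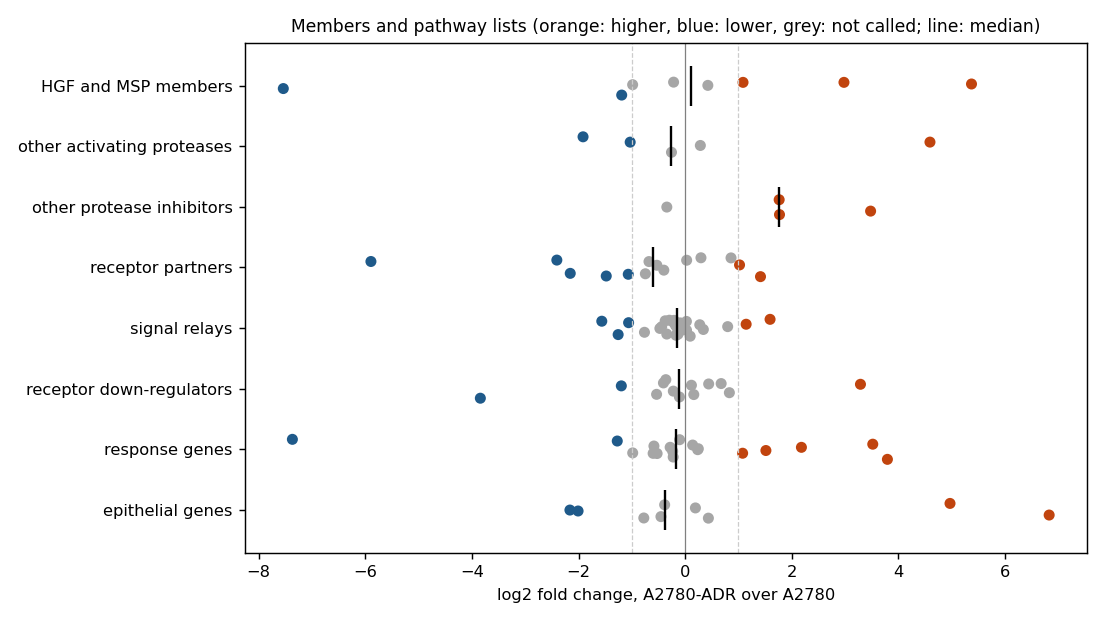
Log2 fold changes (A2780-ADR over A2780) of the tested members and of the tested genes of 7 pathway lists, 1 point per gene (orange called higher, blue called lower, grey not called), with the median of each list as a black line and the 2-fold thresholds dashed. MET and MST1R lie at the far ends of the member row, MMP1 and KRT8 at the far ends of the lists, and most signal relays lie between the thresholds.

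Among the 89 tested genes of the pathway lists, those whose pattern over the 6 samples was most like that of a called member, by Pearson's r on the log2 scale, were ITGB1 for HGF (0.999), SPRY2 for MET (0.998), SHC1 for MST1R (0.992), RAP1A for HGFAC (0.995) and USP8 for SPINT1 (0.972). The 6 points fall into the groups of the lines, so these values describe the difference between the lines and carry no test.

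Marker genes of other cell types and of ovarian carcinoma were measured as well. Of 8 fibroblast markers 7 averaged at least 10 normalized counts, and their summed level was 41112 to 42175 in A2780-ADR and 31725 to 35196 in A2780, most of it from COL3A1. COL3A1 was not called (0.29). COL1A1 (3.11), COL1A2 (3.26) and PDGFRB (2.54) were higher in A2780-ADR, PDGFRA (-1.32) was lower, and LUM (-0.91) and THY1 (-0.10) were not called. Of 6 leukocyte markers 5 averaged under 10, with PTPRC at 2.88 in A2780-ADR and 1.75 in A2780. Summed endothelial markers reached 30.3 to 41.4 in A2780-ADR and 2.03 to 5.09 in A2780, in A2780-ADR mostly from KDR, which rose to 27.1 in A2780-ADR, against 0.340 in A2780 (4.47). The other 4 averaged under 10. Of 7 ovarian carcinoma markers 5 averaged under 10, among them PAX8 (15.3 in A2780-ADR and 1.41 in A2780). PAX2 averaged 1.91 in A2780-ADR and 10180 in A2780, and FOLR1 averaged 439 in A2780-ADR and 16.2 in A2780. The part of these genes in the results on the HGF and MSP pathways was not tested.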

How the data were processed

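RNA of 3 A2780-ADR and 3 A2780 samples was isolated with a column kit and sequenced after TruSeq Stranded mRNA preparation. The authors divided the read counts of each gene by DESeq size factors, so the deposited values are a size-factor scaled signal, called normalized counts here. STAR, HTSeq and DESeq with GRCh38 are listed in the submitters' processing notes. Which versions, gene annotation and strand option were used is not given in the sources used here, so reads of antisense partners may not be separable. Every value above 0 (100% within 0.01) was a whole multiple of the value of 1 read, which gave back reads per gene.

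Genes were named by GENCODE release 29 (57447 of 58051 identifiers matched). limma 3.58.1 in R 4.3.3 (moderated variances that follow the mean) compared log2(normalized count + 1) for genes with a mean of at least 10. The fit was tested on simulated data. That outcome is not reported here, and no result rests on it. Tables were made with pandas 2.3.3, scipy 1.17.1 and numpy 2.4.6, and plots with matplotlib 3.10.9, under Python 3.11.15. Counting intervals are exact conditional binomial intervals at 95%, and 0 reads were replaced by 3 reads, the limit that a count of 0 allows, over the libraries of a line. Promoter windows are from RefSeq (GRCh38.p14).

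Alternatives were pseudocounts of 0.5 and 5, no filter, a mean of at least 50, equal totals, TMM, limma's robust option, DESeq2 1.42.0 and edgeR 4.0.16 on whole reads, a block for the replicate number, no fold threshold, and each sample left out. Members and lists were chosen with earlier results of these data known. Named are all members, up to 3 called genes per direction in each list, the nearest tested neighbours of called members, overlapping genes and copies, and the listed gene most like each called member. Some genes of the pathway and marker lists are not reported here.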

Additional observations from a re-analysis of the deposited data

How the results depend on the processing

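MET, HGF, MST1R and HGFAC kept their direction and their call under every alternative in which they were tested (log2 fold changes of -8.22 to -5.99, -1.26 to -1.15, 4.25 to 5.80 and 2.59 to 3.15), with edgeR and DESeq2 on recovered reads among them. HGFAC and SPINT1 were not tested at a mean of at least 50, where 3 members and 2955 genes were called, as fewer genes entered the test. No value of a member, a named list gene or a named neighbour changed sign. Leaving out 1 library gave 4 to 6 members called and 4675 to 4749 genes called. With no fold threshold 7 members, 12210 of all genes (71.8%), 12 receptor partners, 19 signal relays, 11 receptor down-regulators and 14 response genes passed, which follows from the threshold removed. With no filter on low values ST14 and HPN also passed, and 7 members were called. PRSS8 lost its call with equal totals and CAMKV with a pseudocount of 5 (-0.86), and the cause was not tested. Departures from the mean of each line correlated at 0.00398, -0.0159 and 0.0771 between samples of equal replicate number. Of 6 samples, 3 matched their own number best. With 3 samples per line, these values cannot settle whether samples of equal number were paired. When the replicate number was a block, 5 members and 4690 genes were called. Read ratios without single libraries, given with the members and CAV1, were chosen after seeing the data. Depth limits ST14, HPN, MET in A2780-ADR and MST1R in A2780, which rest on few reads.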
